A study of Mus musculus with 4 samples.

Results

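The miR-99, miR-100 and miR-125 family was represented by 10 of the 816 mouse miRNA names counted in basal and luminal cells of the prostate. The members were chosen by name alone, as every listed arm and copy of miR-99a, miR-99b, miR-100, miR-125a and miR-125b. All 10 had reads in both basal libraries and in luminal replicate 1, and 9 had reads in luminal replicate 2. miR-100-3p was in no list. The study sequenced small RNA from total RNA of male C57Bl/6 mice of wild-type genotype, 10 weeks old, with 2 libraries of basal and 2 of luminal cells. Per the labels' protocols, both groups were sorted by FACS from Sca-1 positive, lineage negative cells of the dissociated gland. Basal cells were those with high CD49f, the integrin that anchors cells to the basement membrane, and luminal cells those with low CD49f, so both names stand for these gates as labelled. Whether the libraries of a group are from different mice is not in the labels, and the p-values then reflect library-to-library spread alone, which may be technical.

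miRNAs are cut from hairpin precursors, and each hairpin can give a 5p and a 3p arm. The bases 2 to 8 of the mature arm, its seed, largely set which messenger RNAs it pairs with. The miR-125 branch is the vertebrate counterpart of lin-4 of Caenorhabditis elegans, the first miRNA described, and miR-125b is known to repress p53 in human and zebrafish cells. The miR-99 and miR-100 branch is known to repress the growth kinase mTOR. In mammals, members of both branches are encoded together with a let-7 gene, a miRNA that restrains growth and is held back by Lin28.

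The mouse has 3 such clusters, all on the plus strand of GRCm38 as annotated in GENCODE M21. The first holds Mir99a, Mirlet7c-1 and Mir125b-2 at chr16:77598936-77646343, within introns of the noncoding host gene Mir99ahg, and Mir125b-2 also overlaps an exon of the transcript C130023A14Rik. The second holds Mir100, Mirlet7a-2 and Mir125b-1 at chr9:41531425-41582002, within introns of the noncoding genes 3110039I08Rik and Gm49317. Mir100 there also overlaps an exon of the antisense noncoding gene Gm48742, and Mir125b-1 an exon of Gm28119. The third holds Mir99b, Mirlet7e and Mir125a within 692 bases at chr17:17830188-17830879, inside the protein-coding gene Spaca6, with Mir125a overlapping an exon and the other two in an intron. miR-125b-5p is thus made from 2 genes, and only its 3p arms tell the gene of chromosome 9 from that of chromosome 16.

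The mature sequences of all 10 names were found in RefSeq (GRCm38.p6) and are shown 5′ to 3′ with the seed in capitals, because the seeds define the branches and the other bases decide which reads can be told apart. The 5p arms of miR-99a, miR-99b and miR-100 share one seed, and those of miR-125a and miR-125b another.
miR-99a-5p: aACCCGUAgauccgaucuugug
miR-100-5p: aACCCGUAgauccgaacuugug
miR-99b-5p: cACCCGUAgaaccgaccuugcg
miR-125b-5p: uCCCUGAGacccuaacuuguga
miR-125a-5p: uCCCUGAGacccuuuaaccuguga
miR-99a-3p: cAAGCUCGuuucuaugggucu
miR-99b-3p: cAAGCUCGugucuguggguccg
miR-125a-3p: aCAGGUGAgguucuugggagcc
miR-125b-1-3p: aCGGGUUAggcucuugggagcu
miR-125b-2-3p: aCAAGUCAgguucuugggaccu

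Counted from 1 at the 5′ end, miR-100-5p differs from miR-99a-5p at a single base, U16A. miR-99b-5p differs from miR-99a-5p at 4 bases, A1C, U11A, U16C and U21C. miR-125a-5p and miR-125b-5p share their first 13 bases and their last 5. The 3p arms of Mir125b-1 and Mir125b-2 differ at 5 of 22 bases, 3 of them (G3A, G4A and U7C) within the seed, so these arms have no seed in common. Among the names of the table with a RefSeq sequence, 1 further name carried the miR-125 seed, miR-351-5p. The labels and headers do not give how reads matching several names were counted, and the split between miR-99a-5p and miR-100-5p is less certain than their sum.

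The precursors of Mir125b-1 and Mir125a show where the arms sit, with both mature arms in capitals.
Mir125b-1: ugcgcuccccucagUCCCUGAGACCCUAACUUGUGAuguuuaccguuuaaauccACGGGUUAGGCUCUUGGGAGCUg
Mir125a: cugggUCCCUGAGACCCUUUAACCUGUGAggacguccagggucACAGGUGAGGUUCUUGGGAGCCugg

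The libraries held from 1501898 to 3278294 miRNA reads. miR-200c-3p took 22.3% and 46.9% of them in the basal and 68.5% and 71.6% in the luminal libraries, and its ratio to the reads of Cali_12, a listed name whose nature the labels do not give, was between 1.496 and 1.62 in all 4. miR-205-5p, a marker of basal epithelium, stood at 51995 and 80966 TMM-normalised reads per 1000000 miRNA reads (RPM) in basal libraries and at 6691 and 4608 in luminal libraries. Of the 5 epithelial markers, only miR-200c-3p had both luminal libraries above both basal ones in RPM. The others (miR-200a-3p, miR-200b-3p, miR-141-3p and miR-429-3p) overlapped between groups. Endothelial miR-126a arms (both seen in all 4 libraries) summed to 34582 to 55099 in basal and 967 to 10587 in luminal libraries. The 5 smooth muscle and fibroblast markers, all seen in each library, summed to 1627 to 2592 in basal and 10652 to 13517 in luminal libraries. Only miR-199a-3p among them overlapped between groups. The 4 leukocyte markers summed to 3483 and 6466 in basal and 2957 and 1910 in luminal libraries. Nearly all of that sum was miR-150-5p, and the other 3 (miR-142-3p, miR-142-5p and miR-223-3p) overlapped between groups and were highest in luminal replicate 2, at 208, 189 and 333. Of the 3 erythroid markers 2 were seen, at 170.5 and 3021 in basal and 207 and 647 in luminal libraries. Striated muscle markers summed to 19.4 and 61.1 in basal and 13.8 and 13.0 in luminal libraries. Only miR-1a-3p among these 3 did not overlap, at 8.22 and 21.5 in basal and 0 and 0.813 in luminal libraries. The neural pair was at 2.24 and 8.94 in basal and 263 and 74.0 in luminal libraries. Nearly all of the luminal neural sum was miR-9-5p, at 259 and 74.0, and miR-124-3p overlapped between groups. The part of such cells in the values below was not tested.

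The family was abundant in both cell types, and no member passed the test between them. Its reads made up 7.05% (95% Wilson interval 7.01 to 7.09) of all miRNA reads in basal replicate 1 and 6.85% (6.82 to 6.88) in basal replicate 2. The shares were 4.23% (4.203 to 4.27) in luminal replicate 1 and 3.61% (3.58 to 3.64) in luminal replicate 2. These intervals cover counting error only, as they do for all read shares and ratios here. Both basal libraries were thus higher by this measure, at 6.95% ± 0.143 against 3.92% ± 0.438 (SD, n = 2 each), and an exact 2-sided permutation test gave p = 0.3333, the smallest that 2 libraries against 2 allow. The order depended on the total. With miR-200c-3p left out of it, the shares were 9.07% and 12.9% in basal and 13.5% and 12.7% in luminal replicates 1 and 2, the groups overlapped, and the mean was lower in basal cells (exact permutation p = 0.667). As a share of all listed reads the family took 4.97% and 3.15% in basal and 1.59% and 1.46% in luminal libraries.

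**Figure D1:**
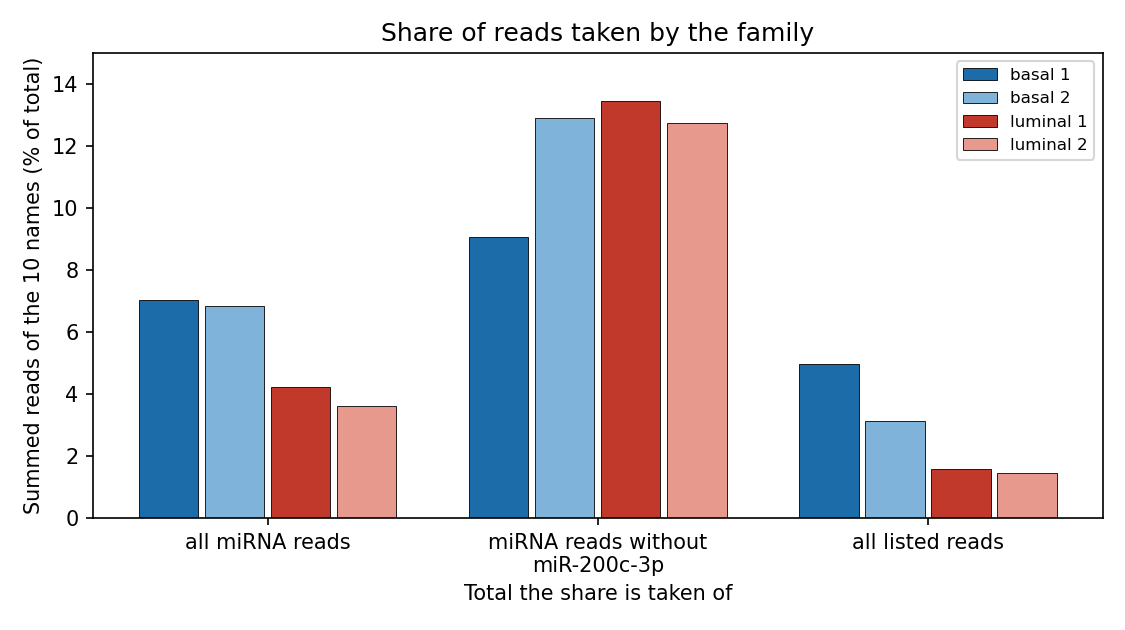
Summed reads of the 10 family names as a percentage of 3 totals, 1 bar per library. Basal libraries are higher as a share of all miRNA reads (7.05% and 6.85% against 4.23% and 3.61%), and the groups overlap once miR-200c-3p is left out of the total (9.07% and 12.9% against 13.5% and 12.7%).

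miR-125b-5p was the leading member in every library. It took 69.0% and 70.4% of the family's reads in basal and 70.0% and 64.6% in luminal replicates 1 and 2. Among all miRNAs it ranked 6 and 3 in basal and 2 and 3 in luminal libraries. Its levels, in RPM, were 33719 and 47108 in basal and 35943 and 28535 in luminal replicates 1 and 2. One luminal library lay between the basal ones, so the groups overlapped in RPM. As a plain share of miRNA reads they did not, at 4.86% and 4.82% in basal and 2.97% and 2.34% in luminal replicates 1 and 2. The means were 40413 ± 9467 for basal and 32239 ± 5238 for luminal cells (SD, n = 2 each). The log2 fold change came to 0.33 ± 0.70 (± standard error for every fold change here). It did not pass the test (edgeR's quasi-likelihood F test, p-values adjusted by Benjamini-Hochberg over 345 miRNAs, adjusted p = 0.878).

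miR-125a-5p, which has the same seed and comes from chromosome 17 alone, had 5865 and 11648 RPM in basal and 5850 and 8183 in luminal replicates 1 and 2. The second library of each group was the higher one, and the groups overlapped in RPM but not as a share of miRNA reads (0.845% and 1.19% against 0.483% and 0.670%). The log2 fold change was 0.32 ± 0.63 (edgeR, adjusted p = 0.863), and it was -0.25 without basal replicate 2. Summed over both 5p arms with the miR-125 seed, the log2 fold change was 0.33 with an adjusted p of 0.882 (edgeR, a sum chosen after the data were seen).

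In the other branch, miR-99a-5p stood at 7156 and 5953 RPM in basal and 7397 and 6143 in luminal replicates 1 and 2. The groups overlapped almost fully, with means of 6555 ± 851 and 6770 ± 886 (SD, n = 2 each). The log2 fold change was -0.05 ± 0.60 (edgeR, adjusted p = 0.983). miR-100-5p, which differs from it by U16A, had 700 and 1161 RPM in basal and 1431 and 634 in luminal replicates 1 and 2. The luminal libraries lay outside the basal pair on either side, and the log2 fold change was -0.15 ± 0.62 (edgeR, adjusted p = 0.941), or 0.60 without luminal replicate 1. Both values lay above 0 under upper-quartile factors, library totals alone or scaling to the Cali reads.

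miR-99b-5p was the only 5p member whose groups did not overlap in TMM-normalised RPM. Over all tested miRNAs 27.2% had both basal libraries above in RPM and 24.3% both luminal ones. As a share of miRNA reads 3 of the 5 had both basal libraries above both luminal ones, where 40% of all did. Per Cali read all 5 had, where 55.4% of all did. miR-99b-5p had 1368 and 857 RPM in basal and 612 and 619 in luminal replicates 1 and 2. The difference did not pass the test, at a log2 fold change of 0.85 ± 0.59 (edgeR, adjusted p = 0.472). When the reads of miR-99a-5p, miR-99b-5p and miR-100-5p were summed, a choice made after the data were seen, the log2 fold change was 0.03 (edgeR, adjusted p = 0.985). The levels of the 5p arms therefore ran in the order miR-125b, then miR-125a and miR-99a, then miR-100 and miR-99b, in all 4 libraries. The members within each of the last 2 pairs changed places between libraries and had overlapping ranges. All 10 arms are 21 to 24 bases long, so levels were compared with no scaling by length. Whether a read had to span the whole arm was not given in the labels or headers. In such bulk samples, fewer cells with a miRNA and less of it per cell cannot be told apart.

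**Figure D2:**
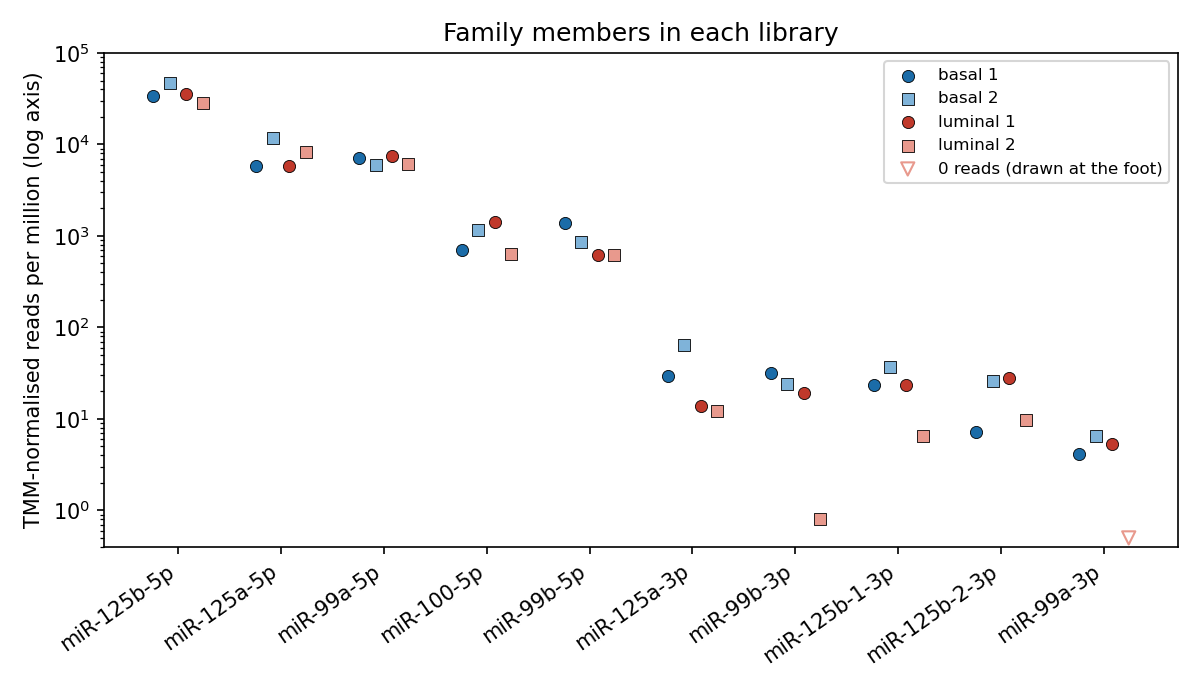
TMM-normalised reads per 1000000 miRNA reads of each member on a log axis, 1 point per library. The 5p arms lie above 600 in every library and the 3p arms below 65, and the basal points lie above both luminal points for miR-99b-5p, miR-125a-3p and miR-99b-3p.

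The 3p arms of the family were rare. Together they made up 0.0137% and 0.0162% of miRNA reads in basal and 0.00745% and 0.00240% in luminal replicates 1 and 2. miR-125a-3p had 78 and 216 reads in basal and 18 and 15 in luminal replicates 1 and 2, or 29.2 and 64.4 against 13.8 and 12.2 RPM. Both basal libraries were higher, with a log2 fold change of 1.84 ± 1.11 that did not pass the test (edgeR, adjusted p = 0.3995). This was the lowest adjusted p of the 10 members. Without basal replicate 2 the log2 fold change was 1.18.

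miR-99b-3p, from the same cluster, had 84 and 81 reads in basal and 25 and 1 in luminal replicates 1 and 2. Luminal replicate 2 set the low end. The log2 fold change was 1.47 ± 1.40 (edgeR, adjusted p = 0.647). Without luminal replicate 2 it was 0.59. Without luminal replicate 1 it was 5.07 and passed (adjusted p = 0.0352), resting on the single read of luminal replicate 2 as the only luminal value. miR-99a-3p had 11, 22 and 7 reads in basal replicates 1 and 2 and luminal replicate 1, and 0 reads in luminal replicate 2, which allows up to 3. Its log2 fold change was 0.97 ± 2.24 (edgeR, adjusted p = 0.878). It was 0.039 without luminal replicate 2 and 6.71 without luminal replicate 1, a fitted value against 0 reads that depends on the prior count.

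Over the family, all 10 names passed the filter on low counts and 0 of 10 were called by edgeR, where 4.35% of all 345 tested miRNAs were (0.58% with the higher level in basal, 3.77% in luminal cells). None had an unadjusted p under 0.05, where 15.9% of all tested miRNAs did, and DESeq2 also called 0 of 10, where it called 8.12% of all. miR-99a-3p passed the filter only through its basal libraries. Luminal libraries alone would not have passed miR-99b-3p or miR-125b-1-3p, with 1 and 8 reads in luminal replicate 2. The direction of these names in the counts and medians below is therefore not separate support. The 3 names miR-99b-5p, miR-99b-3p and miR-125a-3p, all of the chromosome 17 cluster, had both basal libraries above both luminal ones in TMM-normalised RPM, where 27.2% of all tested miRNAs did. miR-125a-5p, the most read arm of that cluster, overlapped. No member had both luminal libraries above in RPM, where 24.3% did. This set of 3 depended on the scaling. As a share of miRNA reads 7 of the 10 had both basal libraries above, where 40% of all did, and miR-99a-5p, miR-100-5p and miR-125b-2-3p overlapped. Per Cali read all 10 had, where 55.4% of all did. No member had both luminal libraries above on either of these 2 scales, where 15.4% of all did by share and 6.67% per Cali read. Single members were not ordered as shares of the total without miR-200c-3p. Both endothelial miR-126a arms were higher in RPM in both basal libraries, and their part in the values of the members was not tested. The fold changes lay above 0 for 7 members and below 0 for 3, with a median of 0.59 on the log2 scale beside -0.01 over all tested miRNAs. Under 3 other scalings all 10 lay above 0. The median was then 0.90 beside 0.31 over all under upper-quartile factors, 1.18 beside 0.56 under library totals alone, and 2.51 beside 1.99 under scaling to the Cali reads. With a minimum mean of 10 RPM, 9 members were tested, without miR-99a-3p. Of these 6 lay above 0, and the median was 0.30 beside 0.01 over all. With 1 library left out, the median ranged from 0.096 without basal replicate 2 (-0.22 over all) to 0.86 without luminal replicate 1 (0.47 over all). The standard errors of the 5p arms, 0.59 to 0.70, show the precision that these 4 libraries give.

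**Figure D3:**
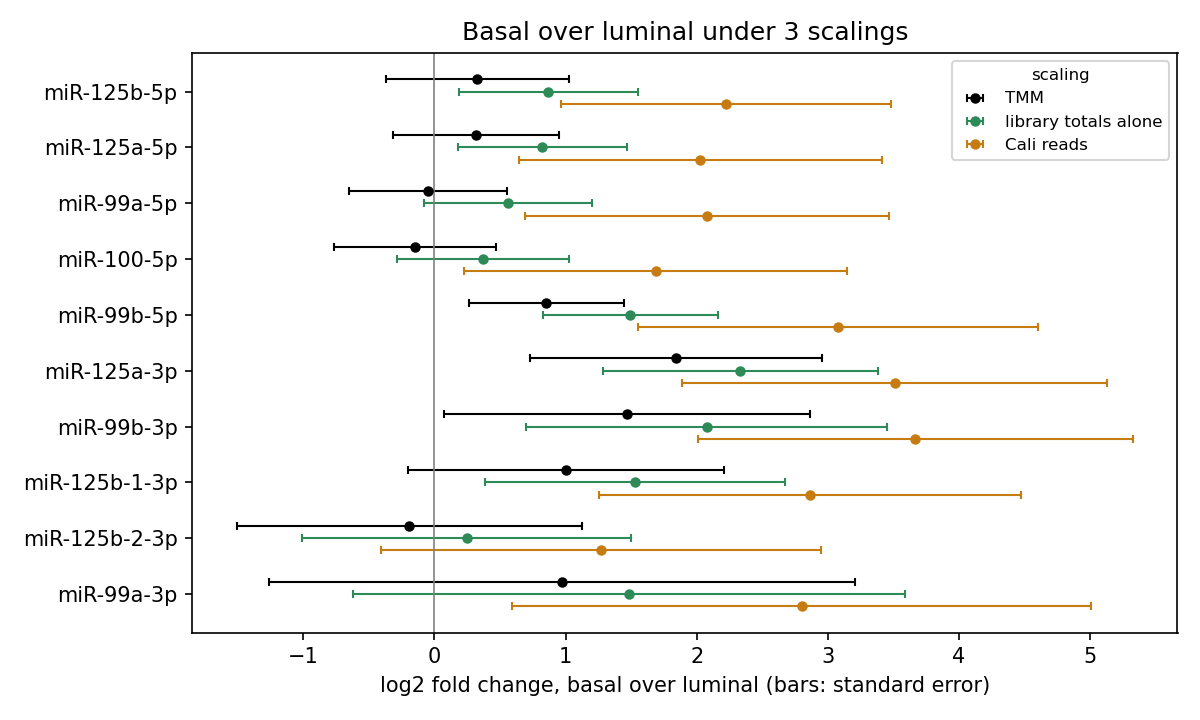
Log2 fold change of basal over luminal for each member under TMM, library totals alone and scaling to the Cali reads, with bars of 1 standard error. Under TMM miR-99a-5p, miR-100-5p and miR-125b-2-3p lie below 0, and under the other 2 scalings plotted all 10 lie above 0.

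Ratios between reads of one library need no scaling, and 16 of them were computed, 15 with reads on both sides in all 4 libraries. Of the 15, 4 did not overlap between the groups and 11 did, where 52.5% of all pairs of tested miRNAs seen in all libraries had ratios that did not overlap. No ratio could reach a p below 0.3333, and the lowest value after Benjamini-Hochberg adjustment was 1, so they stand as descriptions. The first 2 described concern which gene or arm the reads came from.

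The first was the ratio of the 3p arms of Mir125b-1 and Mir125b-2. miR-125b-1-3p, of chromosome 9, had 23.5 and 37.2 RPM in basal and 23.7 and 6.51 in luminal replicates 1 and 2. miR-125b-2-3p, of chromosome 16, had 7.10 and 26.2 RPM in basal and 28.3 and 9.76 in luminal replicates 1 and 2. Both arms together had 82 and 213 reads in basal and 68 and 20 in luminal libraries. miR-125b-1-3p had the fewest in 1 library, 8 reads in luminal replicate 2. The chromosome 9 arm was thus the more frequent of the pair in both basal libraries and the less frequent in both luminal ones. The ratio was 3.32 (95% Wilson interval 1.996 to 5.51) and 1.42 (1.08 to 1.86) in basal, and 0.838 (0.522 to 1.34) and 0.667 (0.280 to 1.59) in luminal replicates 1 and 2. The intervals of basal replicate 2 and both luminal libraries overlapped, and those of the luminal libraries include equal counts. The separate tests gave log2 fold changes of 1.004 for miR-125b-1-3p and -0.19 for miR-125b-2-3p (edgeR, adjusted p = 0.712 and 0.980). Without luminal replicate 1 they were 2.26 and 0.80, and without luminal replicate 2 they were 0.40 and -0.73. Without basal replicate 1, miR-125b-2-3p was at 0.46, and without basal replicate 2 it was at -1.39.

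The second was the ratio of the miR-125a arms. Reads of miR-125a-5p outnumbered those of miR-125a-3p by 201 (95% Wilson interval 161 to 251) and 181 (158 to 207) to 1 in basal libraries. They did so by 425 (268 to 672) and 671 (406 to 1107) to 1 in luminal libraries. The luminal ratios were the higher ones and their intervals lay above those of the basal libraries. The like ratio for miR-99b was 43.6 and 35.5 in basal and 32.0 and 761 in luminal replicates 1 and 2, and overlapped. For miR-125b-5p over its 3p arms summed it was 1100 and 742 in basal and 691 and 1754 in luminal replicates 1 and 2, and overlapped too.

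Among the 5p arms, reads of miR-99a exceeded those of miR-99b by 5.23 and 6.95 times in basal and 12.1 and 9.93 times in luminal replicates 1 and 2, without overlap. The ratio of miR-125a-5p to miR-125b-5p was 0.174 and 0.247 in basal and 0.163 and 0.287 in luminal replicates 1 and 2, so the luminal libraries lay on either side of the basal ones. That of miR-99a-5p to miR-100-5p was 10.2 and 5.13 in basal and 5.17 and 9.68 in luminal libraries. The miR-99 and miR-100 5p arms together had 0.233 and 0.136 reads in basal and 0.226 and 0.201 in luminal replicates 1 and 2 for each read of the miR-125 5p arms. Differences between libraries of one group were thus as large as those between groups in these 3 ratios. miR-125a-5p and miR-99b-5p, whose hairpins lie within 692 bases, had ratios from 4.29 in basal replicate 1 to 13.6 in basal replicate 2, with the luminal values of 9.56 and 13.2 between them.

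**Figure D4:**
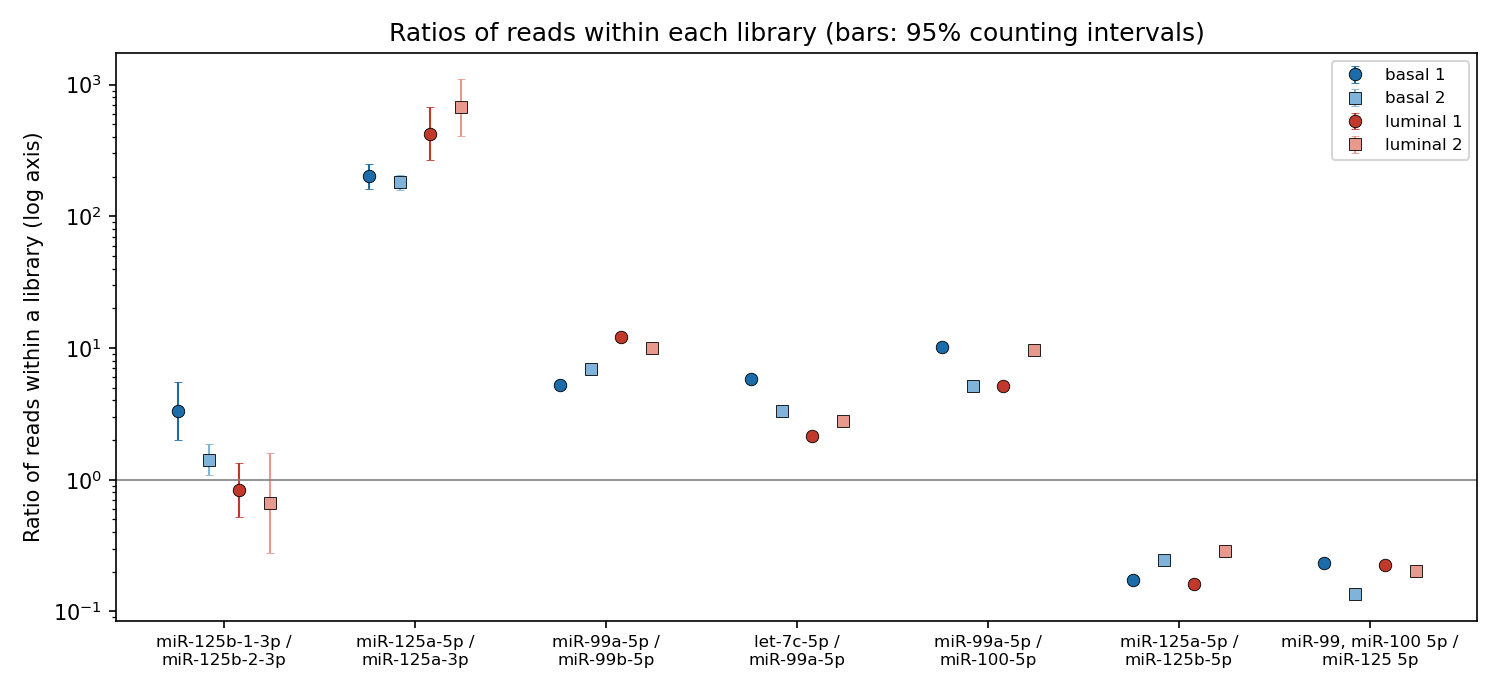
Ratio of reads between pairs of names within each library on a log axis, with 95% Wilson intervals for counting error. The first 4 ratios on the axis do not overlap between groups, and the other 3 do. The grey line marks equal reads.

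The let-7 partners of the clusters were less clear guides to a cluster, because let-7a-5p and let-7c-5p are also made elsewhere in the genome. let-7c-5p, partner of miR-99a, had 41525 and 19922 RPM in basal and 15910 and 17137 in luminal replicates 1 and 2. Both basal libraries were higher, with a log2 fold change of 0.89 ± 0.69 (edgeR, adjusted p = 0.531). let-7e-5p, which comes from the miR-99b and miR-125a cluster alone, had 1163 and 700.4 RPM in basal and 637 and 368 in luminal replicates 1 and 2. The fitted log2 fold change was 0.89 ± 0.61 (edgeR, adjusted p = 0.472), next to 0.85 for miR-99b-5p. let-7e-5p and miR-99b-5p had like read numbers, at ratios of 0.850 and 0.817 in basal and 1.04 and 0.594 in luminal replicates 1 and 2. let-7a-5p, partner of miR-100, had a log2 fold change of 0.52 (edgeR, adjusted p = 0.704). Of the 3p arms of these genes, let-7a-2-3p had 1 read in all, let-7e-3p had 5 to 20 reads per library and was not tested, and let-7c-1-3p was in no list. Of the let-7 arms with a test, none was called, and let-7a-1-3p had a log2 fold change of -1.15 (edgeR, adjusted p = 0.686). The RefSeq sequence of let-7a-1-3p, encoded on chromosome 13, is the same as that of let-7c-2-3p on chromosome 15, which was in no list, so its reads cannot be placed.

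Reads for each miR-99a-5p read numbered 5.80 and 3.35 for let-7c-5p in basal and 2.15 and 2.79 in luminal replicates 1 and 2, without overlap. The let-7 5p arms are as hard to tell apart as miR-99a and miR-100, since let-7c-5p and let-7a-5p differ only by G19A, and let-7a-5p and let-7e-5p only by U9G. They are shown here for that reason, with their common seed in capitals.
let-7c-5p: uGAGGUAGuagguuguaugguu
let-7a-5p: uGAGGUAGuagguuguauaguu
let-7e-5p: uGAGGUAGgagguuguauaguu

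miR-351-5p, encoded on chromosome X in the miR-322 cluster, has the miR-125 seed but departs from miR-125b-5p after base 8.
miR-351-5p: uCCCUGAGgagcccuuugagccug
It had 183 and 244 RPM in basal and 106 and 70.8 in luminal replicates 1 and 2. Both basal libraries were higher, with a log2 fold change of 1.27 ± 0.74 that did not pass the test (edgeR, adjusted p = 0.388).

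The profiles most like that of miR-125b-5p were sought among tested miRNAs outside the family with a mean of at least 50 RPM. Likeness was the root mean square difference of log2 RPM over the 4 libraries, after each profile was centred on its own mean. The nearest were let-7f-5p at 0.128, miR-30a-3p at 0.153, miR-339-5p at 0.170, miR-140-3p at 0.182 and miR-30e-5p at 0.186. Within the family, miR-99a-5p was at 0.321, miR-125a-5p at 0.341, miR-100-5p at 0.368 and miR-99b-5p at 0.495. They ranked 21, 24, 28 and 51 by likeness among the 174 names compared, these 4 members included. Thus 20 names outside the family were nearer to miR-125b-5p than any of these 4 members. The greater part of the names compared lay farther off than all 4. The 5 members with a 3p arm were under the minimum and were not compared. With 4 libraries these distances describe these libraries only.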

How the data were processed

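Whole-number read counts per miRNA name, not normalized, were deposited by the authors, with 1 list of names and reads per library, per the file headers. BLAST is named in the title of the table. For its version, the miRNA database, trimming, mismatches and reads with several matches, the settings were not given in the labels or headers. Any name not listed in a library was taken as 0 reads. An unnamed sum closing each list and 4 names that are no mouse miRNA (Cali_7, Cali_12, Cali_24 and a 5′ adaptor, 29.5% to 62.4% of listed reads) were kept out of totals and tests. The test was run in edgeR 4.0.16 under R 4.3.3 (TMM factors, filterByExpr at a minimum of 10 and a total of 15 reads, quasi-likelihood test, 2-sided, cell type as the only term). Adjustment was by Benjamini-Hochberg over 345 miRNAs at a threshold of 0.05. The standard error is the log2 fold change divided by the square root of F. DESeq2 1.42.0 and 12 other settings were tried. The test was also run on simulated counts drawn from an average profile with a common dispersion. They were not made to carry the miR-200c-3p difference, so they do not show how the test performs here. Intervals of ratios were computed from the Wilson interval of one name's share of the pair. A count of 0 allows up to 3 reads. Named miRNAs are all members, the let-7 arms of their clusters, names with a member's 5p seed and the 5 profiles nearest to miR-125b-5p. Lists of marker miRNAs were looked up by name, with miR-142a under its older name miR-142. Members, lists and settings were chosen with earlier results of these data known.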

Additional observations from a re-analysis of the deposited data

How the results depend on the processing

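Calls over all miRNAs numbered 15, and 2 with library totals alone, 3 with scaling to the Cali reads, 5 with a minimum mean of 10 RPM, 28 in DESeq2, 23 with the replicate block, and 9 to 61 when 1 library was left out. The lower end came without basal replicate 1 and the upper without luminal replicate 1 (27 without luminal replicate 2). A run without 1 library leaves its group with a lone library, assumed to vary like the other group. The replicate block added the replicate number to the model and called 0 of the 10 members. Same-numbered libraries share only a number. The differences between replicates 1 and 2 in each group correlated at 0.15 over 345 miRNAs, which are not independent.

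Of 128 member values under other settings, 110 kept their direction and side of the threshold. The call of miR-99b-3p without luminal replicate 1 was the single call among them. Relative to TMM, upper-quartile factors, library totals alone and scaling to the Cali reads moved the median of all miRNAs by 0.32, 0.57 and 1.99 on the log2 scale. Under these, miR-100-5p turned to 0.12, 0.37 and 1.69, miR-99a-5p to 0.27, 0.56 and 2.07, and miR-125b-2-3p to 0.042, 0.25 and 1.27. miR-99a-5p was at 0.10 with no filter. Runs without 1 library ranged from -0.58 to 0.60 for miR-100-5p, from -0.20 to 0.16 for miR-99a-5p, from -1.39 to 0.80 for miR-125b-2-3p and from -0.25 to 0.71 for miR-125a-5p. The summed miR-99 and miR-100 5p arms were at -0.018 with a minimum mean of 10 RPM, and from -0.071 to 0.30 without 1 library. The cause of these turns was not tested. The family's share, 3.02 percentage points higher in basal libraries, came to -2.12 points with miR-200c-3p out of the total. It ranged from 2.71 to 3.33 without 1 library. The log2 ratio of miR-125b-1-3p to miR-125b-2-3p, 1.54 higher in basal libraries, ranged from 0.93 to 2.15, and that of the miR-99 and miR-100 to the miR-125 5p arms from -0.65 to 0.13. With 1 to 216 reads per library where seen, the 3p arms limit every statement about genes and arms.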
